A study of Homo sapiens with 8 samples.

Results

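Red cells owe their shape and strength to a spectrin skeleton that ankyrin, protein 4.1 and protein 4.2 tie to membrane proteins such as band 3, the glycophorins and the Rh complex. Erythroid precursors also take up large amounts of transferrin-bound iron and move it into mitochondria for haem synthesis, and they depend on erythropoietin for survival. The 33 genes described here encode such proteins. They were chosen by name, with earlier results of these data known: 3 glycophorins, 7 proteins of the membrane skeleton and its anchors, 9 proteins of the red cell surface, 6 proteins of iron uptake and mitochondrial transport, 4 regulators and receptors, and 4 enzymes. All 33 were found among the 61544 entries of each count table, and 29 of them were among the 16499 entries that passed a filter on low counts.

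RNA sequencing compared cells carrying an shRNA against DDX6 with cells carrying a control shRNA, after lentiviral transduction and puromycin selection. The helicase DDX6 is required for P-bodies, granules of the cytoplasm in which untranslated mRNAs are held, and the comparison asked which transcripts changed level when it was reduced. The 4 groups of 2 libraries each were HEL with DDX6 shRNA, HEL with control shRNA, MOLM-13 with DDX6 shRNA and MOLM-13 with control shRNA. HEL is an established human erythroleukaemia line with erythroid and megakaryocytic features and an activating JAK2 mutation, and MOLM-13 is a monocytic acute myeloid leukaemia line with a KMT2A fusion. The labels give the genotype of the DDX6 shRNA cells as DDX6 knockdown and that of the controls as WT, and both were grown in RPMI with serum. The names show a single DDX6 hairpin in each line, so an effect of the hairpin itself and one of DDX6 cannot be told apart. The HEL column names number the hairpin and the MOLM-13 names do not, so whether both lines carried the same hairpin is not shown. Whether replicates were separate cultures is not stated, so each p-value is set by library-to-library spread that may be technical.

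Total counts were 10719829 and 11507674 in the HEL DDX6 shRNA libraries, 11342693 and 12093544 in the HEL control libraries, and 7888318 to 8174432 in the MOLM-13 libraries. DDX6 mRNA had 96.8 and 94.8 CPM (counts scaled to a common library size) in HEL DDX6 shRNA libraries, against 177 and 179.8 CPM in HEL controls, and 67.9 and 74.2 CPM in MOLM-13 DDX6 shRNA libraries, against 126 and 122 CPM in MOLM-13 controls. That was 53.8% of the control mean in HEL (log2 fold change -0.90 ± 0.07, SE, adjusted p = 3.54e-14). In MOLM-13 it was 57.3% (-0.80 ± 0.08, adjusted p = 2.56e-11), and the difference between the lines did not pass (-0.09 ± 0.11, adjusted p = 0.636). In these bulk libraries, fewer cells of a type and less RNA per cell cannot be told apart.

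The promoters of the paralogous pairs among the members are printed because each pair shares near-identical upstream sequence, while the transcripts of GYPB and GYPE changed in opposite directions. EPOR and HEMGN are added as the member that moved in opposite directions in the lines and the member with the largest fall in HEL. RefSeq (GRCh38.p14) gave a promoter for 24 of the 33 members. Shown are the 250 bases upstream of the annotated start, 5′ to 3′ on the strand of the gene. Capitals mark WGATAR, the sequence that GATA factors recognise (its forms are AGATAA, then also AGATAG, as well as TGATAA, and finally TGATAG), and CCNCNCCC, the pattern of the CACCC boxes bound by Krüppel-like factors. Both were searched on both strands, and overlapping matches are joined.
GYPB (chr4:144019381-144019630, minus strand): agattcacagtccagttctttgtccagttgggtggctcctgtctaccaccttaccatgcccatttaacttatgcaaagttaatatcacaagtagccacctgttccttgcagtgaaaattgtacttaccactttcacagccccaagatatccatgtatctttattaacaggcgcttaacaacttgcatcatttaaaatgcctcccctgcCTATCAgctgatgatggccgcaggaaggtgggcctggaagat
GYPE (chr4:143905560-143905809, minus strand): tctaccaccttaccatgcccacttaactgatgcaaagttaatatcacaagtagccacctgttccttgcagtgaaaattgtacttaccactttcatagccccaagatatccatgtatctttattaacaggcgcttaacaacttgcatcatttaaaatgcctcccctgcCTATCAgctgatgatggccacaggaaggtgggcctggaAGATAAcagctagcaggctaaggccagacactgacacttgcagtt
RHD (chr1:25272236-25272485, plus strand): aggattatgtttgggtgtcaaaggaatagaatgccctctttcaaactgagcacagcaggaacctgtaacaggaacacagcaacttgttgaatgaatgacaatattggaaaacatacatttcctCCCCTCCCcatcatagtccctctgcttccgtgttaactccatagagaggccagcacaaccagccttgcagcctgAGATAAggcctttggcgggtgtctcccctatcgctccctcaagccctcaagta
RHCE (chr1:25420936-25421185, minus strand): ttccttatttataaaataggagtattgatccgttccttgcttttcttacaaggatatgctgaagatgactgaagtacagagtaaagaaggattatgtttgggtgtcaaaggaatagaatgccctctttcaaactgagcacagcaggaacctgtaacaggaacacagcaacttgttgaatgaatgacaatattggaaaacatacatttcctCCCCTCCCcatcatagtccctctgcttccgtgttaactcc
EPOR (chr19:11384315-11384564, minus strand): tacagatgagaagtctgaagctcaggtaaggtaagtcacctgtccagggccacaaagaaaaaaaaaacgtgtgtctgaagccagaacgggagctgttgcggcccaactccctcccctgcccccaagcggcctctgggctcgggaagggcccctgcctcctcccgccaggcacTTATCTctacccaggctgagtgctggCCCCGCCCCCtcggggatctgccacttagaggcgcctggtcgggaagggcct
HEMGN (chr9:97944853-97945102, minus strand): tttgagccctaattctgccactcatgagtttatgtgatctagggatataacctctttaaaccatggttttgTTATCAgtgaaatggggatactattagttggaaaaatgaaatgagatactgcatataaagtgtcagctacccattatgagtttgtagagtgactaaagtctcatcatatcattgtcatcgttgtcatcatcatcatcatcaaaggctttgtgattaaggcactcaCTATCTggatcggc

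The upstream sequences of GYPB and GYPE were identical at 205 of 209 aligned bases (98.1%), and those of RHD and RHCE at 163 of 163. In each pair the annotated starts lie at different places in that shared sequence, so a motif can stand inside the window of 1 gene and outside that of its partner. WGATAR occurred in 12 of the 24 member promoters (50%), against 22.9% of 27305 promoters of the same length and 14.3% of the 11375 that belong to tested genes. CCNCNCCC occurred in 17 of 24 (70.8%), against 52.4% of all promoters and 69.8% of those of tested genes. In the GENCODE annotation RHD starts at 25272393, inside its printed window, so the marked AGATAA lies within that gene. RHCE, on the minus strand, extends there to 25430192, upstream of its window. A match in these windows is a description of sequence and not a binding site.

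In HEL, 29 of the 33 genes were expressed well enough to be tested, and their levels covered a wide range. Per kilobase of annotated exon, CA1, which encodes carbonic anhydrase 1, was at 182 CPM in the DDX6 shRNA libraries and 190.0 CPM in the controls. RHAG, the Rh-associated glycoprotein, was at 179.6 CPM per kilobase with DDX6 shRNA and 172 in controls, and TFRC, the transferrin receptor, was at 159 with DDX6 shRNA and 115 in controls. Lowest in controls among the tested genes were TMOD1 (6.63 with DDX6 shRNA, 3.72 in controls), ABCB6 (2.04 with DDX6 shRNA, 1.61 in controls) and ADD2 (1.47 with DDX6 shRNA, 0.870 in controls). The label of red cell membrane genes held only in part: band 3 (SLC4A1) had 5 and 6 counts with DDX6 shRNA and 2 and 2 counts in controls, the haemoglobin chaperone gene AHSP had at most 1 count in any HEL library, and TSPO2 had at most 6. ICAM4, a blood group adhesion molecule, had 0 counts in all 8 libraries, where 3 counts would be 0.258 to 0.271 CPM in HEL DDX6 shRNA libraries and 0.238 to 0.251 CPM in HEL controls. All of its exon bases overlap an antisense gene, and since the strand setting is not given, this 0 may not show the level of ICAM4. These 4 genes were not tested and no fold is given for them.

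In MOLM-13, 15 of the 33 genes had fewer than 10 counts in both control libraries, and GYPB, GYPE, KEL and ICAM4 had 0 counts in all 4 MOLM-13 libraries. Between control cells, 29 members averaged higher in HEL than in MOLM-13, and ADD2 and BPGM were among the 4 that did not. Globin mRNAs, a separate sign of the erythroid lineage, summed to 387 and 369.8 CPM in the HEL DDX6 shRNA libraries, 353 and 324 CPM in HEL controls, 0.789 and 0.798 CPM in MOLM-13 DDX6 shRNA libraries and 1.16 and 0.630 CPM in MOLM-13 controls. The 33 members together took 0.601% and 0.588% of all counts in HEL DDX6 shRNA libraries and 0.584% and 0.593% in HEL controls, so their sum was near the same while single members moved in both directions. The corresponding shares were 0.0907% and 0.0952% in MOLM-13 DDX6 shRNA libraries and 0.0845% and 0.0781% in MOLM-13 controls.

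**Figure D1:**
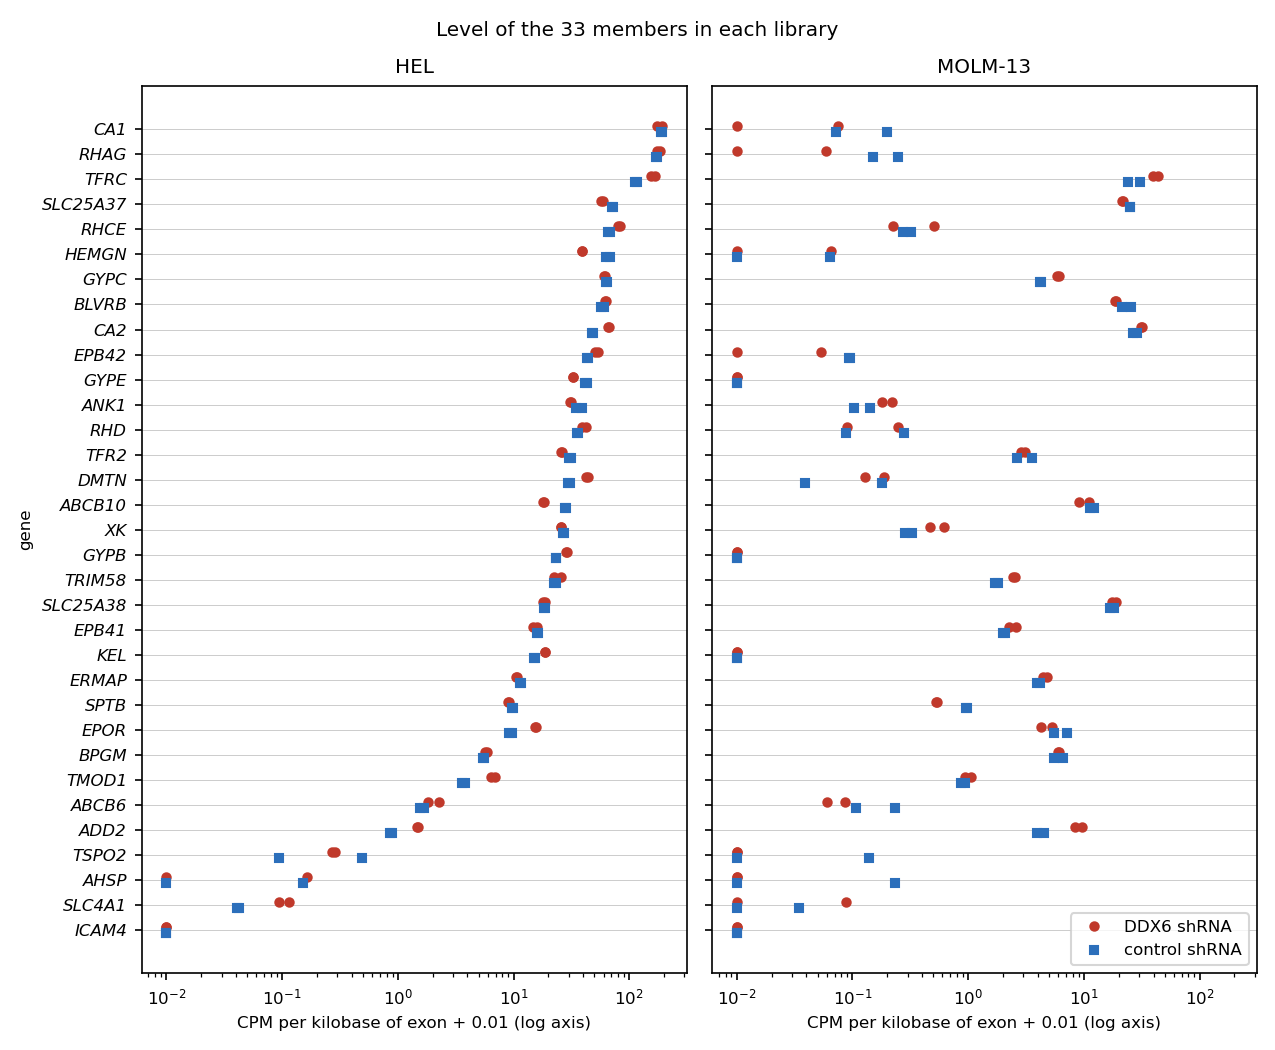
Level of each of the 33 genes in each library, as CPM per kilobase of annotated exon plus 0.01 on a log axis, in HEL (left) and MOLM-13 (right); circles are DDX6 shRNA libraries and squares control libraries. Genes run from the highest HEL control level (CA1, 190.0) at the top to ICAM4, at 0 in all libraries, at the bottom, while 15 genes have fewer than 10 counts in both MOLM-13 controls.

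Reduction of DDX6 in HEL split the red cell genes. Of 29 tested, 10 rose and 6 fell at a Benjamini-Hochberg adjusted p under 0.05 (edgeR), which is called a change below, and 13 did not pass. Among all genes tested 34.8% were called, 20.7% as higher and 14.1% as lower. Since most members are well expressed in HEL, where small changes are easier to detect, the same count was made among genes at 10 CPM or more in HEL: there 16 of 28 members were called, against 45.1% of 9599 genes. The 10 that rose compare with 25.8% of those genes called higher, and the 6 that fell with 19.3% called lower. Since the members were chosen with earlier results of these data known, these shares are a description and not a test. The median log2 fold change was 0.08 over the members and 0.03 over all genes tested. The median absolute change was 0.26 over the members and 0.25 over all genes tested. At 10 CPM or more in HEL it was 0.25 over the members and 0.19 over the 9599 genes. The changes were modest: 5 of the 16 were at least 1.5-fold and 0 were at least 2-fold. The DDX6 shRNA and control libraries did not overlap in 24 of the 29 tested members, the 16 called and 8 of the 13 others, against 67.3% of all genes tested, so with 2 libraries per group the lack of overlap does not set the called genes apart. The rises were those of TMOD1, ADD2, EPOR, DMTN, TFRC, CA2, KEL, GYPB, RHCE and EPB42, and the falls those of HEMGN, ABCB10, GYPE, SLC25A37, ANK1 and TFR2.

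**Figure D2:**
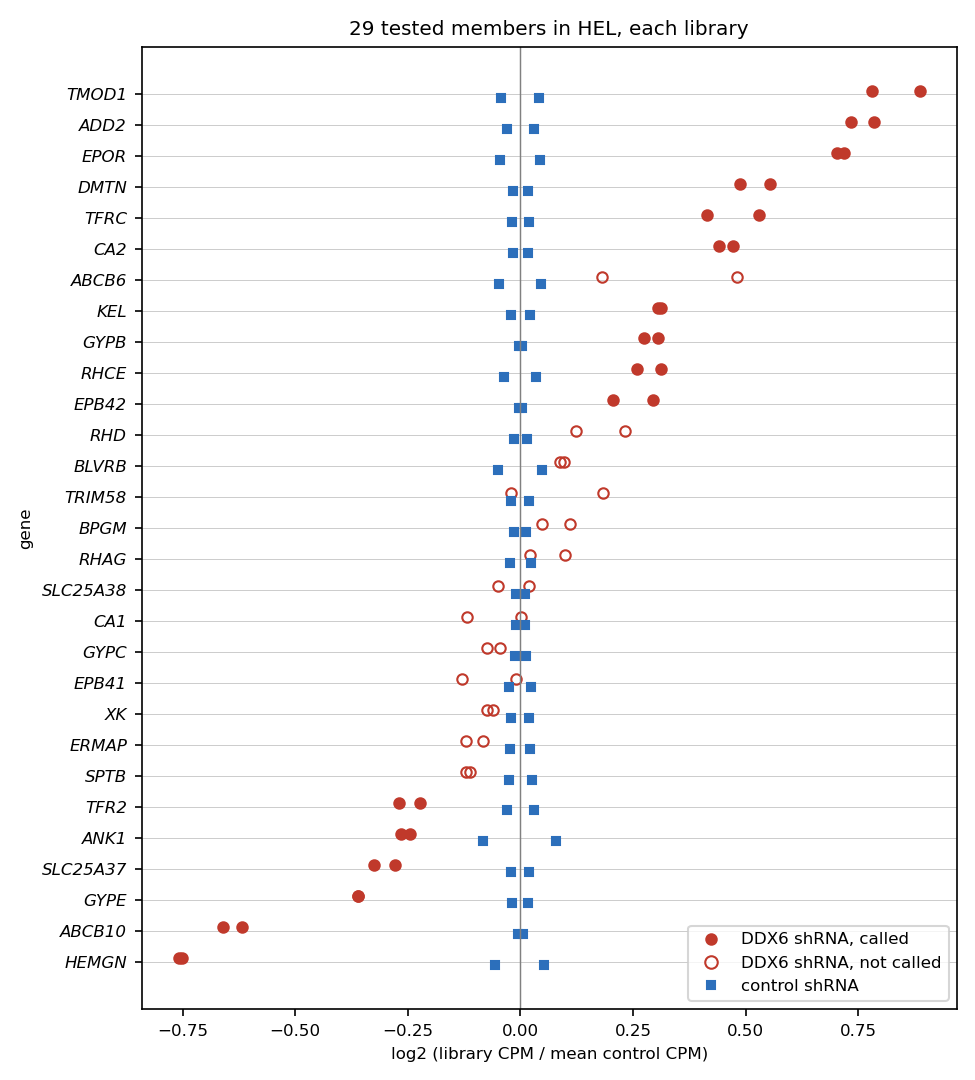
Each HEL library of the 29 tested genes, as the log2 ratio of its CPM to the mean CPM of the control libraries; circles are DDX6 shRNA libraries (filled where the gene was called) and squares control libraries. TMOD1, ADD2 and EPOR stand at the top and HEMGN and ABCB10 at the bottom, and the libraries of the groups do not overlap in the 16 called genes or in 8 of the 13 others.

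Markers of the other lineages moved in the same libraries. The marker lists were chosen with earlier results of these data known. Among all genes tested in HEL, 20.7% were called higher and 14.1% lower. Of 15 tested megakaryocyte and platelet markers, the second lineage that HEL carries, 13 rose and 0 fell, and the 16 listed markers summed to 2162 and 2263 CPM in HEL DDX6 shRNA libraries against 1748 and 1811 CPM in controls, with GP1BB at 0 in all 4. THBS1, thrombospondin 1, had 115 and 112 CPM with DDX6 shRNA, against 32.7 and 27.8 CPM in controls (log2 fold change 1.90 ± 0.09, adjusted p = 6.28e-22), and the platelet collagen receptor gene GP6 had 72.4 and 70.8 CPM with DDX6 shRNA, against 38.3 and 35.1 CPM in controls (0.96 ± 0.09, adjusted p = 1.05e-11). Of 14 monocyte and granulocyte markers 5 passed the filter within HEL, and of these LYZ and CSF3R rose and ITGAM fell, CSF3R not without HEL DDX6 shRNA replicate 2 (adjusted p = 0.083). The sum of the 14 was 69.9 and 74.3 CPM with DDX6 shRNA and 43.0 and 40.1 CPM in controls, and FCN1, MPO and ELANE were at 0 in all 4 HEL libraries. Their part in the changes of the red cell genes was not tested.

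Of the 7 membrane skeleton genes, TMOD1, ADD2, DMTN and EPB42 rose, ANK1 fell, and SPTB and EPB41 did not pass. TMOD1, whose product tropomodulin caps the short actin filaments at the junctions of the spectrin network, had 25.5 and 23.7 CPM with DDX6 shRNA, against 14.2 and 13.4 CPM in controls (log2 fold change 0.83 ± 0.12, adjusted p = 1.49e-07). ADD2 encodes beta-adducin, which joins spectrin to actin, and had 18.3 and 19.0 CPM with DDX6 shRNA, against 11.3 and 10.8 CPM in controls (0.76 ± 0.13, adjusted p = 8.39e-06). DMTN encodes dematin, an actin-bundling protein of the same junctions, and had 198 and 189 CPM with DDX6 shRNA, against 133 and 136 CPM in controls (0.52 ± 0.07, adjusted p = 9.08e-08). For all 3 the libraries of the groups stood well apart. EPB42 encodes protein 4.2, which binds band 3 and ankyrin. It had 162 and 153 CPM with DDX6 shRNA, against 132 and 132 CPM in controls (0.25 ± 0.07, adjusted p = 0.00377). Of the EPB42 exon bases 14.7% are shared with another annotated gene on the same strand, so its count is in part uncertain.

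ANK1, which encodes the ankyrin that fastens spectrin to band 3, had 337 and 332 CPM with DDX6 shRNA, against 377 and 421 CPM in controls (log2 fold change -0.26 ± 0.06, adjusted p = 0.00157). The control libraries were themselves apart, and without HEL control replicate 2 the fall was no longer called (-0.18, adjusted p = 0.149). SPTB, the gene of the erythroid beta-spectrin chain, had 134 and 133 CPM with DDX6 shRNA, against 142 and 147 CPM in controls, and did not pass (-0.12, 95% interval -0.25 to 0.02). It passed, as lower, in 3 alternatives: HEL fitted alone (-0.15, adjusted p = 0.0098) and without MOLM-13 control replicate 1 or 2 (adjusted p = 0.0172 and 0.0169). EPB41, the gene of protein 4.1, had 319.8 and 294 CPM with DDX6 shRNA, against 316 and 327 CPM in controls, and the groups overlapped (-0.07, 95% interval -0.20 to 0.06). It passed, as lower, with HEL fitted alone (-0.10, adjusted p = 0.0485). In all, 4 of the 7 skeleton genes rose and 1 fell, beside 20.7% and 14.1% of all genes tested. With so few genes, nothing is read from this count about the group. The counting strand is not given in the sources used here, and 45.0% of the TMOD1 exon bases overlap TSTD2 on the opposite strand, and TSTD2 fell (-0.59 ± 0.13, adjusted p = 0.000469). PLEKHG3 covers 23.0% of the SPTB exon bases on the opposite strand and did not pass in HEL (-0.06 ± 0.08).

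The glycophorins, sialic acid-rich proteins that carry blood group antigens, did not move as a group. GYPE and GYPB are neighbours on chromosome 4, at 143870867 to 143905563 and 143996104 to 144019345 (GRCh38), and arose by duplication. GYPE fell, with 66.0 and 65.9 CPM with DDX6 shRNA, against 85.8 and 83.6 CPM in controls (log2 fold change -0.36 ± 0.08, adjusted p = 0.000305). GYPB rose, with 53.0 and 54.1 CPM with DDX6 shRNA, against 43.9 and 43.7 CPM in controls (0.29 ± 0.09, adjusted p = 0.00849). The upstream sequences of this pair, printed above, were near-identical, but the RefSeq start of GYPB lies upstream of the GENCODE gene, so its window may not adjoin the transcript counted. The ratio of GYPB to GYPE was 0.803 and 0.820 in DDX6 shRNA libraries and 0.512 and 0.522 in controls, whereas their summed level was 119 and 120.0 CPM with DDX6 shRNA against 129.7 and 127 CPM in controls. Of the 50-base windows of their GENCODE transcripts, 12.7% in GYPB and 1.15% in GYPE also occur in another gene, so the split of reads between copies is uncertain. The GYPB call was lost with DESeq2 (adjusted p = 0.222) and without HEL control replicate 1 (0.0665), control replicate 2 (0.0831) or DDX6 shRNA replicate 2 (0.0619). GYPC, the unrelated glycophorin C that anchors protein 4.1, had 236 and 232 CPM with DDX6 shRNA, against 246 and 242 CPM in controls (-0.06, 95% interval -0.19 to 0.07) and did not pass.

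Among red cell surface genes, RHCE and KEL rose and 0 of the 6 tested fell, beside 20.7% and 14.1% of all genes tested. RHCE, which encodes the C and E antigens, had 203 and 195 CPM with DDX6 shRNA, against 167 and 159 CPM in controls (log2 fold change 0.29 ± 0.07, adjusted p = 0.0008). The call was lost without HEL control replicate 2 (adjusted p = 0.0554). RHD, its neighbour on chromosome 1 that encodes the D antigen, had 139.9 and 129.7 CPM with DDX6 shRNA, against 120.2 and 118 CPM in controls. The groups did not overlap but the change did not pass (0.18, 95% interval 0.03 to 0.33, adjusted p = 0.056), and it did pass with HEL fitted alone (0.0181) and without MOLM-13 control replicate 1 (0.034) or 2 (0.035). Summed over the pair, the level was 343 and 325 CPM with DDX6 shRNA and 287 and 277 CPM in controls, and the sum does not depend on how reads were shared between them. Windows of 50 bases shared with another gene made up 18.7% of RHD and 22.7% of RHCE.

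KEL, the gene of the Kell blood group metallopeptidase, had 74.5 and 74.9 CPM with DDX6 shRNA, against 59.4 and 61.2 CPM in controls (log2 fold change 0.31 ± 0.08, adjusted p = 0.0023). This was lost with DESeq2 (adjusted p = 0.107) and without HEL control replicate 1 (0.0544). XK encodes the membrane partner that is disulfide-linked to Kell. It had 133 and 135 CPM with DDX6 shRNA, against 142 and 139 CPM in controls (-0.07, 95% interval -0.21 to 0.07). RHAG, which carries the Rh proteins to the membrane, had 496 and 470.3 CPM with DDX6 shRNA, against 471 and 456 CPM in controls (0.06, 95% interval -0.07 to 0.19), and the groups overlapped. The Scianna blood group gene ERMAP had 62.2 and 60.5 CPM with DDX6 shRNA, against 64.8 and 66.8 CPM in controls (-0.10, 95% interval -0.26 to 0.06).

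Among the iron genes TFRC rose, while TFR2 and the mitochondrial genes SLC25A37 and ABCB10 fell. TFRC, the receptor that brings in transferrin-bound iron, had 1304 and 1204 CPM in DDX6 shRNA libraries, against 915 and 891 CPM in controls (log2 fold change 0.47 ± 0.07, adjusted p = 2.45e-07). TFR2, the second transferrin receptor and a partner of the erythropoietin receptor, had 133 and 129 CPM with DDX6 shRNA, against 152 and 159 CPM in controls (-0.25 ± 0.07, adjusted p = 0.00626). Its fall was lost with DESeq2 (adjusted p = 0.0664) and without HEL control replicate 2 (0.111) or DDX6 shRNA replicate 2 (0.0877). SLC25A37 encodes mitoferrin 1, which imports iron into erythroid mitochondria, and had 466 and 480.5 CPM with DDX6 shRNA, against 575 and 591 CPM in controls (-0.30 ± 0.06, adjusted p = 6.12e-05). ABCB10, an inner-membrane transporter that binds and stabilises mitoferrin 1, had 75.9 and 78.2 CPM with DDX6 shRNA, against 120.4 and 119.6 CPM in controls (-0.64 ± 0.08, adjusted p = 6.05e-09). Both libraries of each DDX6 shRNA pair lay below both controls for these 3 falling genes. Such a lack of overlap was found in 67.3% of all genes tested and does not set them apart.

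The other transporters did not pass. SLC25A38, which brings glycine into mitochondria for the first step of haem synthesis, had 48.2 and 50.6 CPM with DDX6 shRNA, against 50.3 and 49.6 CPM in controls (log2 fold change -0.02, 95% interval -0.19 to 0.15). ABCB6, a porphyrin transporter, had 9.56 and 11.8 CPM with DDX6 shRNA, against 8.16 and 8.70 CPM in controls (0.34, 95% interval 0.02 to 0.66, adjusted p = 0.0974). Of its exon bases 54.7% are shared with another annotated gene on the same strand, so its count is uncertain. Over the group of 6 genes, 1 rose and 3 fell, beside 20.7% and 14.1% of all genes tested. The group is too small for its count to be read as a result about iron genes.

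Of the receptors and regulators, EPOR rose and HEMGN fell. EPOR, the erythropoietin receptor gene, had 47.1 and 47.7 CPM with DDX6 shRNA, against 28.1 and 29.9 CPM in controls (log2 fold change 0.71 ± 0.10, adjusted p = 1.51e-07). HEMGN encodes hemogen, a nuclear protein of haematopoietic progenitors and erythroid cells, and had 93.4 and 93.8 CPM with DDX6 shRNA, against 164 and 152 CPM in controls (-0.76 ± 0.07, adjusted p = 2.01e-11). Both changes were many times their SE, and the spread within each pair was small beside the gap between groups. TRIM58, a ubiquitin ligase of late erythroblasts, had 83.6 and 72.6 CPM with DDX6 shRNA, against 72.6 and 74.6 CPM in controls (0.09, 95% interval -0.07 to 0.25).

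Of the 4 enzyme genes CA2 rose and the others did not pass. CA2, carbonic anhydrase 2, had 141 and 138 CPM with DDX6 shRNA, against 101 and 103 CPM in controls (log2 fold change 0.46 ± 0.07, adjusted p = 1.05e-06). Its neighbour on chromosome 8, CA1, had 773 and 711 CPM with DDX6 shRNA, against 767 and 779 CPM in controls (-0.06, 95% interval -0.18 to 0.07), and the groups overlapped. CA1 passed, as lower, with HEL fitted alone (-0.09, adjusted p = 0.0483). BLVRB, biliverdin reductase B, had 105 and 106 CPM with DDX6 shRNA, against 102 and 95.5 CPM in controls (0.09, 95% interval -0.06 to 0.24). BPGM, which makes the bisphosphoglycerate that lowers the oxygen affinity of haemoglobin, was at 14.7 ± 0.446 CPM with DDX6 shRNA and 13.9 ± 0.184 CPM in controls (SD, n = 2 each) and did not pass.

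The calls in HEL differed in how firmly they stood. Of the 16, 10 were called in each of the 15 alternative analyses: the rises of ADD2, DMTN, TMOD1, EPOR, TFRC and CA2 and the falls of HEMGN, ABCB10, SLC25A37 and GYPE. The other 6, all with a log2 fold change between -0.26 and 0.31, were lost in at least 1. Besides those given above, EPB42 was lost with DESeq2 (adjusted p = 0.0633) and without HEL control replicate 1 (0.057), control replicate 2 (0.0596) or DDX6 shRNA replicate 1 (0.118).

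Other genes of the pathway were taken from lists of globins, haem synthesis, transcription factors, skeleton relatives, surface genes, iron, erythropoietin signalling and late maturation. These lists too were chosen with earlier results of these data known. Their counts in HEL stand beside 20.7% of all genes tested called higher and 14.1% called lower. At 10 CPM or more in HEL these shares were 25.8% and 19.3%. Fetal globin HBG2 was the only called gene of 8 tested globins in HEL, with 275 and 257 CPM with DDX6 shRNA against 243 and 225 CPM in controls (log2 fold change 0.18 ± 0.07, adjusted p = 0.027). It was lost in 8 alternatives, among them the removal of HEL control replicate 1 (0.0516), control replicate 2 (0.363) or DDX6 shRNA replicate 1 (0.333), of MOLM-13 DDX6 shRNA replicate 1 (0.0898) or 2 (0.0905), and DESeq2 (0.131). Of 9 haem synthesis genes 2 rose and 1 fell. UROS, the enzyme that closes the porphyrin ring, had 204 and 195 CPM with DDX6 shRNA, against 145 and 148 CPM in controls (0.44 ± 0.07, adjusted p = 8.14e-07). PPOX, the enzyme of the step before iron insertion, had 24.8 and 26.6 CPM with DDX6 shRNA, against 37.5 and 31.3 CPM in controls (-0.42 ± 0.11, adjusted p = 0.00135), and was lost with DESeq2 (0.0711) and without HEL control replicate 1 (0.123). The rise of UROD (0.16 ± 0.06, adjusted p = 0.0372) was lost in 10 alternatives.

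Of 17 erythroid transcription factor genes 5 rose and 3 fell in HEL, against 20.7% and 14.1% of all genes tested. ZFPM1, the GATA1 cofactor FOG1, had 32.9 and 37.2 CPM with DDX6 shRNA, against 22.4 and 23.6 CPM in controls (log2 fold change 0.61 ± 0.10). TAL1 had 464 and 475 CPM with DDX6 shRNA, against 387 and 391 CPM in controls (0.27 ± 0.06), and FOXO3 had 50.8 and 50.8 CPM with DDX6 shRNA, against 66.5 and 70.0 CPM in controls (-0.42 ± 0.08); adjusted p was at most 0.00044 for the 3. Of the relatives and partners of the skeleton that other cells also express, 22 passed the filter within HEL. Among these 12 rose and 3 fell, with a median log2 fold change of 0.28. They included the tropomyosins TPM4 (764 and 753 CPM with DDX6 shRNA, 551 and 540.1 CPM in controls) and TPM1 (102 and 99.2 CPM with DDX6 shRNA, 72.3 and 66.4 CPM in controls), and ANK2, whose level was low (14.04 and 8.96 CPM with DDX6 shRNA, 3.41 and 3.93 CPM in controls). Of 17 other surface and blood group genes that passed the filter within HEL, 10 rose and 0 fell, with a median of 0.30. CD36 had 276 and 272 CPM with DDX6 shRNA, against 173 and 168 CPM in controls, and SEMA7A, the John Milton Hagen blood group gene, had 228 and 225 CPM with DDX6 shRNA, against 152 and 142 CPM in controls. AQP3, the Gill blood group aquaporin, had 18.004 and 15.4 CPM with DDX6 shRNA, against 5.31 and 4.43 CPM in controls. These rises were not particular to HEL. In MOLM-13, 11 of 21 skeleton relatives rose and 2 fell (median 0.26), and 9 of 14 such surface genes rose and 2 fell (median 0.35). Of all genes that passed within MOLM-13, 20.8% were called higher and 16.6% lower. The MOLM-13 log2 fold changes were 2.28 for AQP3, 1.28 for SEMA7A, 0.99 for CD36 and 1.45 for TPM4.

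In erythropoietin receptor signalling, 5 of 16 genes rose and 5 fell in HEL. Among all genes tested in HEL 20.7% were called higher and 14.1% lower, and at 10 CPM or more 25.8% and 19.3%. The kinase gene PIM1, a known target of STAT5, had 493 and 496 CPM with DDX6 shRNA, against 792 and 789.5 CPM in controls (log2 fold change -0.68 ± 0.06, adjusted p = 5.19e-13). STAT5A, a transcription factor that the receptor activates through JAK2, had 346 and 343 CPM with DDX6 shRNA, against 445 and 456 CPM in controls (-0.39 ± 0.06, adjusted p = 2.05e-06). STAT5B, CISH and SOCS2 also fell, and SOCS1, PTPN6, SH2B3 and BCL2L1 rose beside KIT. KIT, the stem cell factor receptor gene, had 343 and 324 CPM with DDX6 shRNA, against 242 and 239.6 CPM in controls (0.47 ± 0.06, adjusted p = 1.35e-07). Of 18 iron genes that passed the filter within HEL, 2 rose and 1, PCBP2, fell. SLC40A1 (the exporter ferroportin) rose, with 355 and 346 CPM with DDX6 shRNA and 231 and 230.4 CPM in controls. HMOX1 (haem oxygenase 1) also rose, with 8.96 and 7.78 CPM with DDX6 shRNA and 3.33 and 3.43 CPM in controls. Of 15 tested genes of organelle clearance and late maturation 4 rose and 6 fell, among them GABARAPL2 (0.43 ± 0.08), SLC6A8 (-0.73 ± 0.15) and MXI1 (-0.57 ± 0.13). In MOLM-13, 6 of 15 erythropoietin signalling genes rose and 3 fell, with PIM1 higher (0.64, adjusted p = 9.61e-12). There 8 of 18 iron genes rose and 3 fell. Among genes that passed the filter within MOLM-13, 20.8% were called higher and 16.6% lower.

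**Figure D3:**
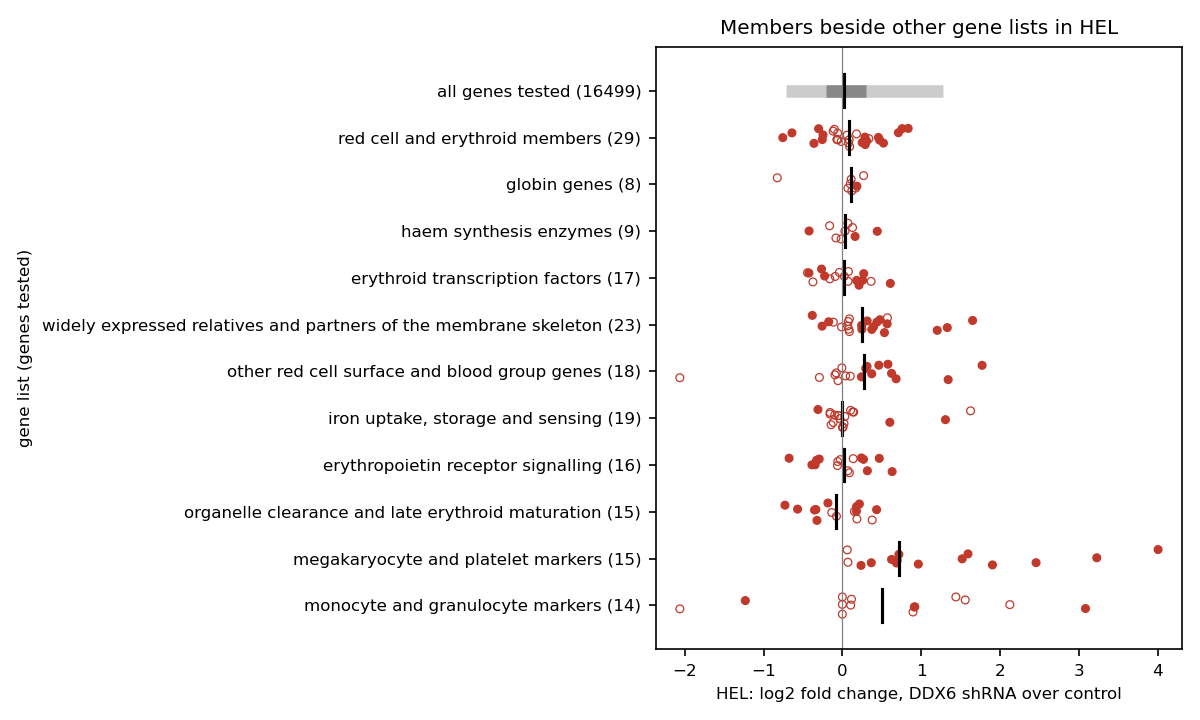
Log2 fold change in HEL, DDX6 shRNA over control, of each tested gene of the red cell genes and of the other lists. Filled points were called, open points were not, and the black bar is the median. Genes that passed the joint filter but not the filter within HEL are also plotted, among them monocyte and granulocyte markers (5 of 14 passed within HEL). The top row shows all 16499 tested genes as bars from the 25 to 75 and the 5 to 95 percentiles; the red cell genes lie on both sides of 0 (median 0.08), and the megakaryocyte markers to the right (median 0.72).

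In MOLM-13, 18 members passed the filter within the line. Of these 4 rose and 4 fell, 44.4%, against 37.4% of the 13940 genes that passed within MOLM-13 (20.8% higher and 16.6% lower). ADD2 rose most clearly, with 106 and 122 CPM in DDX6 shRNA libraries, against 57.4 and 50.03 CPM in controls (log2 fold change 1.08 ± 0.09, adjusted p = 1.09e-13). TFRC had 314 and 346 CPM with DDX6 shRNA, against 243 and 189 CPM in controls (0.61 ± 0.07, adjusted p = 6.98e-09), and GYPC had 23.3 and 22.1 CPM with DDX6 shRNA, against 16.1 and 16.01 CPM in controls (0.50 ± 0.13, adjusted p = 0.00169). EPB41 had 44.7 and 51.5 CPM with DDX6 shRNA, against 41.5 and 39.6 CPM in controls, at the edge of the threshold (0.25 ± 0.10, adjusted p = 0.0479). It was lost in 11 of 15 alternatives, with adjusted p up to 0.423, among them each removal of a HEL library (0.0572 to 0.0705) and the removal of MOLM-13 control replicate 2 (0.113) or DDX6 shRNA replicate 2 (0.423).

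The falls in MOLM-13 were led by SPTB, with 7.76 and 7.71 CPM with DDX6 shRNA, against 14.2 and 14.1 CPM in controls (log2 fold change -0.87 ± 0.16, adjusted p = 3.87e-05). PLEKHG3, which overlaps it on the opposite strand, did not pass there (0.27 ± 0.12, adjusted p = 0.0674). SLC25A37 had 178 and 175 CPM with DDX6 shRNA, against 205 and 206 CPM in controls (-0.22 ± 0.07, adjusted p = 0.00831), and was lost without DDX6 shRNA replicate 1 (0.0574) or 2 (0.077). BLVRB had 32.2 and 31.1 CPM with DDX6 shRNA, against 36.3 and 42.8 CPM in controls (-0.32 ± 0.11, adjusted p = 0.0164). It was lost with DESeq2 (0.0858) and without control replicate 2 (0.256), DDX6 shRNA replicate 1 (0.0767) or 2 (0.129). EPOR had 13.2 and 16.4 CPM with DDX6 shRNA, against 16.9 and 22.1 CPM in controls (-0.40 ± 0.15, adjusted p = 0.0318). The groups did not overlap, but their nearest libraries were close (16.4 CPM with DDX6 shRNA and 16.9 CPM in a control), and the fall was lost with DESeq2 (0.172), with no filter (0.0511), without control replicate 2 (-0.18, 0.473) and without DDX6 shRNA replicate 1 (-0.23, 0.398).

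RHAG was also called as lower in MOLM-13 in the joint fit, on 0 and 1 counts with DDX6 shRNA against 5 and 3 in controls. Its ratio was 0.13, with an exact 95% counting interval of 0.0029 to 0.968, and the call was lost with DESeq2 (adjusted p = 0.177), with no filter (0.0993), without HEL control replicate 1 (0.0512) or 2 (0.0516), with MOLM-13 control replicate 1 left out (0.223), and with DDX6 shRNA replicate 1 (0.313) or 2 (0.0567) of that line left out. With it, 9 of the 29 tested members were called in MOLM-13, against 32.4% of all genes tested (18.1% higher and 14.3% lower). Of the members that passed the filter in MOLM-13 and were not called, ABCB10, at 38.3 and 47.5 CPM with DDX6 shRNA against 52.3 and 47.6 CPM in controls, came nearest among the falling ones (-0.22, adjusted p = 0.0877). It was called without MOLM-13 control replicate 2 (-0.28, adjusted p = 0.0448) or DDX6 shRNA replicate 2 (-0.38, 0.0232). TRIM58 (0.51, adjusted p = 0.0555) and XK (0.86, adjusted p = 0.0556) came nearest among the rising ones, and each was called with a minimum count of 50 (0.0497 and 0.0467), TRIM58 also with RLE scaling (0.0496). TRIM58 had 8.15 and 7.84 CPM with DDX6 shRNA, against 5.796 and 5.42 CPM in controls, and XK had 3.16 and 2.39 CPM with DDX6 shRNA, against 1.42 and 1.64 CPM in controls. CA2 was called as higher without MOLM-13 control replicate 1 (0.25, adjusted p = 0.0298), against 0.18 and adjusted p = 0.103 with it. The other 6 that were not called, ANK1, ERMAP, TMOD1, TFR2, SLC25A38 and BPGM, had log2 fold changes between -0.06 and 0.75 and adjusted p of 0.155 or more. The 14 monocyte and granulocyte markers summed to 6515 and 6984 CPM in MOLM-13 DDX6 shRNA libraries and 5692 and 5852 CPM in MOLM-13 controls, with 5 higher and 7 lower, and their part in these changes was not tested.

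The change differed between the lines for 5 of the 18 genes measured in each (27.8%). That compares with 19.3% of the 12316 genes that passed within each line and 15.1% of all genes tested. The names do not show whether the lines carried the same hairpin, so line and hairpin cannot be told apart here. Of the 5, 3 were more positive in HEL and 2 more negative, against 9.61% and 9.66% of the genes that passed within each line and 7.59% and 7.53% of all genes tested. EPOR gave the largest such difference: it rose in HEL and fell in MOLM-13, with a HEL change minus MOLM-13 change of 1.11 ± 0.18 on the log2 scale (adjusted p = 9.68e-06). For SPTB the difference was 0.75 ± 0.18 (adjusted p = 0.00214), with a fall called in MOLM-13. GYPC had a difference of -0.56 ± 0.14 (adjusted p = 0.0043), with a rise called in MOLM-13. These 3 held in each of the 14 alternatives for this comparison. BLVRB (0.42 ± 0.13, adjusted p = 0.0226) was lost with DESeq2 (0.13), without HEL control replicate 2 (0.135), HEL DDX6 shRNA replicate 1 (0.0602) or 2 (0.0601), MOLM-13 control replicate 2 (0.237), and MOLM-13 knockdown replicate 1 (0.114) or 2 (0.171). ABCB10 (-0.42 ± 0.13, adjusted p = 0.018) was lost with DESeq2 (0.0733), without HEL control replicate 1 (0.0723) or 2 (0.0655), HEL DDX6 shRNA replicate 1 (0.0693) and MOLM-13 knockdown replicate 2 (0.221).

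**Figure D4:**
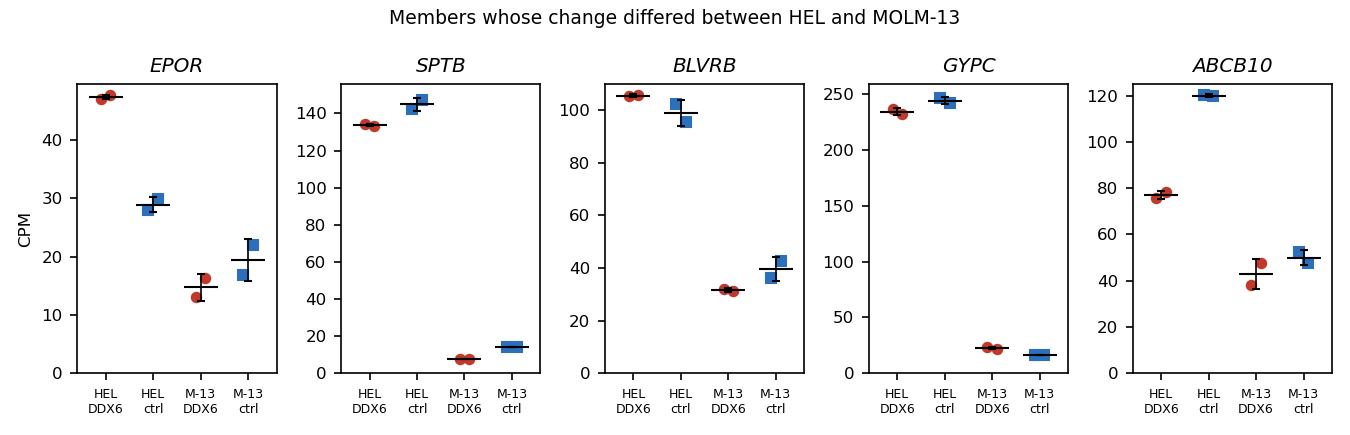
CPM of the 5 genes whose change differed between HEL and MOLM-13 (M-13), with DDX6 shRNA libraries as circles, control libraries as squares, and the mean ± SD (n = 2) in black; each axis starts at 0. EPOR is higher with DDX6 shRNA in HEL (47.1 and 47.7 CPM, controls 28.1 and 29.9) and lower in MOLM-13 (13.2 and 16.4 CPM, controls 16.9 and 22.1).

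ADD2 and TFRC rose and SLC25A37 fell in both lines, and for these the difference between lines was not called (adjusted p = 0.179, 0.408 and 0.608, with 95% intervals of -0.65 to -0.0025, -0.34 to 0.06 and -0.26 to 0.10). Without MOLM-13 control replicate 1 the difference was called for ADD2 (-0.47, adjusted p = 0.0252) and for TFRC (-0.37, adjusted p = 4.93e-05), as a larger rise in MOLM-13. The same removal called EPB41 (-0.39, adjusted p = 0.00943), which was also called without MOLM-13 control replicate 2 (0.044) or knockdown replicate 1 (0.0175) and with upper-quartile scaling (0.0381), against 0.0636 with all libraries. The rise of TMOD1 in HEL and its change of 0.13 ± 0.28 in MOLM-13, at 3.42 and 3.86 CPM with DDX6 shRNA and 3.48 and 3.15 CPM in controls, differed by 0.70 ± 0.30 and did not pass (adjusted p = 0.119). HEMGN, GYPB, GYPE, KEL, RHCE, DMTN and EPB42, all called in HEL, had at most 9 counts in any MOLM-13 library, and nothing is read from their difference between lines.

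**Figure D5:**
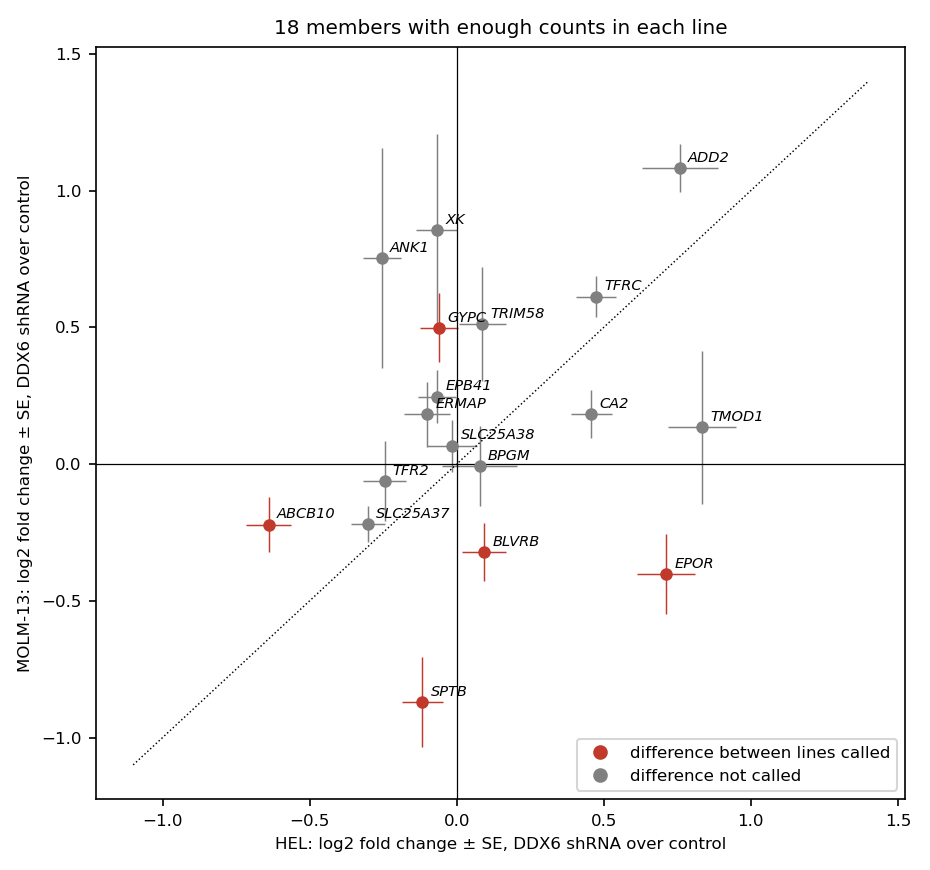
Log2 fold change of the 18 genes measured in both lines, HEL on the horizontal and MOLM-13 on the vertical axis, with SE bars; the dotted line marks equal change, and red points are the 5 genes whose change differed between lines. ADD2 and TFRC lie at the upper right, EPOR at the lower right and SLC25A37 at the lower left.

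Sequence features of the mRNAs were set beside the changes. In HEL, across the 29 tested members, Spearman's rho between the log2 fold change and the GC content at codon wobble positions was 0.11, and with the length of the 3′ UTR it was -0.21. Across 12935 tested genes with a coding transcript the values were 0.09 and -0.05. In MOLM-13, across the 18 members that passed there, rho was -0.34 with wobble-position GC content and 0.44 with 3′ UTR length, against 0.10 and 0.01 across 11540 genes. The points share libraries and are not independent, so these are descriptions without a test.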

How the data were processed

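Gene counts came from 2 tables deposited by the authors, 1 per cell line, with 4 libraries each. They hold raw counts, 1 column per replicate. Per the labels' protocols, extraction used the miRNeasy Micro kit and library construction the NEBNext Ultra II RNA kit. The tools listed in the submitters' processing notes are STAR, SAMtools 1.12 and DESeq2, with GRCh38 as the build. Not given in the sources used here were counter, annotation and strand setting.

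The members and lists were chosen with earlier results of these data known. All 8 libraries entered 1 edgeR 4.0.16 model (R 4.3.3) with a mean per group, TMM scaling and filterByExpr (minimum count 10), which kept 16499 entries. The quasi-likelihood test compared DDX6 shRNA with control in each line, and the HEL change minus the MOLM-13 change, with Benjamini-Hochberg adjustment over all entries tested. The SE is the absolute log2 fold change divided by the square root of F. Every member is described; values in each library are given for members called in either line and for those at 20 CPM or more in HEL controls, and up to 3 called genes are named from each other list; STAT5B, CISH, SOCS1, SOCS2, PTPN6, SH2B3 and BCL2L1 were named after their values were seen. Coordinates, exon lengths and overlaps are from GENCODE release 29 (GRCh38), and levels per kilobase use the union of annotated exons. The test was also run on simulated counts. Alternatives were RLE and upper-quartile scaling, other filters, DESeq2 1.42.0, each line alone, a replicate block and leaving out each library. Intervals of fold changes come from the SE; the counting interval and the floors cover counting error only.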

Additional observations from a re-analysis of the deposited data

Results flagged for a closer look

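The change in HEL minus the change in MOLM-13 passed the test for 5 of the genes, with both lines measured under the same contrast. It was 1.11 for EPOR, 0.75 for SPTB, 0.42 for BLVRB, -0.42 for ABCB10 and -0.56 for GYPC on the log2 scale. For EPOR the line-specific changes were called with opposite signs. That in MOLM-13 rests on 13.2 and 16.4 CPM with DDX6 shRNA against 16.9 and 22.1 CPM in controls and was lost without MOLM-13 control replicate 2 (-0.18, adjusted p = 0.473) or MOLM-13 DDX6 shRNA replicate 1 (-0.23, adjusted p = 0.398).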

How the results depend on the processing

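In HEL, 10 members were called higher and 6 lower as reported. These counts were 10 and 6 with RLE scaling, upper-quartile scaling, either other filter and the replicate block. They were 11 and 9 with HEL fitted alone and 7 and 5 with DESeq2, and ranged from 7 to 11 and from 4 to 7 when a library was left out. Genes called higher in HEL were 3417 (1924 with DESeq2, 2216 to 3566 with a library left out) and lower 2322 (1164, and 1503 to 3205). In MOLM-13, 4 members were higher (3 to 5 with a library left out) and 5 lower (3 with no filter on low counts, 2 with DESeq2, 1 to 5 with a library left out). Genes called higher in MOLM-13 were 2981 (2231 to 3048 with a library left out) and lower 2358 (1149 with DESeq2, 1433 to 2300). For the difference, 3 members were higher (2 to 3) and 2 lower (1 with DESeq2, 1 to 5 with a library left out), among 1253 genes higher (552 with DESeq2, 658 to 1326) and 1242 lower (729, and 849 to 1912). In MOLM-13, 6 members were called higher with a minimum count of 50, and 2037 genes were called higher with DESeq2. Spread between replicates was expressed as chi-square per degree of freedom, which is 1 for counting error alone. It was 3.37 in MOLM-13 controls and 1.69 in MOLM-13 with DDX6 shRNA. In HEL it was 1.42 in controls and 1.55 with DDX6 shRNA. The joint model estimates the spread of a gene over all groups, so the MOLM-13 controls also enter the HEL p-values. The cause of these shifts was not tested.

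Changes of sign touched members that were not called. With a library left out, the HEL values ran from -0.022 (without DDX6 shRNA replicate 1) to 0.187 for TRIM58, from -0.121 to 0.0028 (without DDX6 shRNA replicate 2) for CA1, and from -0.0517 to 0.0165 (without DDX6 shRNA replicate 1) for SLC25A38. In MOLM-13 they ran from -0.246 to 0.175 (without control replicate 2) for TFR2, positive also without DDX6 shRNA replicate 2 (0.0064). For BPGM they ran from -0.120 to 0.134 (without control replicate 1), with 0.0013 and 0.011 without DDX6 shRNA replicate 1 and 2, and were 0.0042 with RLE scaling and 0.012 with DESeq2. The BPGM difference ran from -0.0912 (without MOLM-13 control replicate 1) to 0.162.

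Replicates share numbers across groups in the labels, but same-numbered libraries did not deviate together (r = 0.05 in HEL and -0.04 in MOLM-13, across genes). With 2 pairs in each line, this cannot show whether they were paired by culture or preparation. With the replicate block, 3157 and 2096 genes were called in HEL and 2796 and 2131 in MOLM-13, and in HEL members the counts stayed at 10 and 6. In MOLM-13 the block called 3 members higher and 5 lower (EPB41 was lost, adjusted p = 0.0693), and for the difference 3 and 2. Depth limits the members with few MOLM-13 counts: of those under 10 counts in both controls only RHAG was called there, on 1 against 8 counts in all.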
